A study of Homo sapiens with 4 samples.

Results

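The replication-dependent histone genes of the HIST1 and HIST2 clusters were examined for H3K9me3, a histone mark of silent chromatin, in U2OS, a human bone cancer cell line. The members were the broad peaks on hg19 that overlapped 3 regions: chromosome 6 from 26.00 to 26.60 Mb (the first region), chromosome 6 from 27.05 to 27.90 Mb (the second region), and chromosome 1 from 149.75 to 149.90 Mb (the HIST2 region). There were 140 such peaks among 326674 in list 1 and 58 among 264919 in list 2, on chromosomes 1 to 22 and X. The regions were set against the stretch between the chromosome 6 regions, from 26.60 to 27.05 Mb, and against the 1 Mb before them, from 25 to 26 Mb.

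The study held 2 inputs, for which no antibody was used, and 2 samples immunoprecipitated for H3K9me3, all from formaldehyde-fixed U2OS cells that carry the label KRAB-IDR3-TCF3, which the labels do not explain. Only 2 peak lists were used here. The labels tie both inputs to list 1 and both antibody samples to list 2, while the peak names in both lists speak of immunoprecipitations, so the lists are described here without a sample or group. No value below therefore has a replicate error, no test between conditions was possible, and the lists were not compared in level, since list 1 went down to a fold of 1.44 and list 2 to 1.90. Without read counts in the lists, the depth is unknown.

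Replication-dependent histone genes supply the core histones H2A, H2B, H3 and H4 and the linker histone H1 when DNA is copied in S phase. Their messages end in a stem-loop instead of a poly(A) tail, and the genes gather at the histone locus body, a nuclear body that brings together the factor NPAT and the machinery that processes their 3′ ends. H3K9me3 is read by HP1 proteins and is set, among other places, over zinc finger gene clusters by the KRAB and TRIM28 pathway.

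In RefSeq gene order (GRCh38.p14), 64 protein-coding histone genes fell into 4 runs. The chromosome 6 genes made up 53 of them, with 6 of class H1, 11 of H2A, 14 of H2B, 10 of H3 and 12 of H4. The first run went from H1-1 to H4C8 with 32 genes and held a single other protein-coding gene, HFE, which controls iron uptake. The next run, from H2BC11 to H2AC12, held 5 genes, and the last, from H2BC13 to H2BC17, held 16. Between the first and the next run lay 6 butyrophilin genes, which act in T cell control, with HMGN4, ABT1, ZNF322 and 47 tRNA genes. The interval before the last run held 51 tRNA genes and, among its 5 protein-coding genes, the zinc finger genes ZNF391 and ZNF184. On chromosome 1 the run from H2BC18 to H2AC21 held 11 genes, 4 of H2A, 2 of H2B, 3 of H3 and 2 of H4, with FCGR1A, an Fc receptor gene, among them. These tables are on another build than the peaks, so only names and order were used and no peak was assigned to a gene. The covered shares below are those of whole regions, which may hold such other genes. They are not shares of the histone genes themselves.

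Promoters of 4 histone genes of the runs are shown as examples, 1 each for H3, H2B and H4 of chromosome 6 and 1 for H3 of chromosome 1. They are the 250 bases before the RefSeq start on the strand of the gene (GRCh38.p14), 5′ to 3′. Capitals mark the CCAAT box (CCAAT), the TATA box (TATAA) and the octamer of H2A and H2B promoters (ATTTGCAT), each searched on both strands.
H3C1: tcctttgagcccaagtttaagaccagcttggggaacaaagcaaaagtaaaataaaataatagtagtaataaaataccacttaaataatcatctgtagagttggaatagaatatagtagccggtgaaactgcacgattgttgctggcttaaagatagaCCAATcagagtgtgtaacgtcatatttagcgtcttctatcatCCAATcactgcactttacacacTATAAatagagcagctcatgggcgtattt
H2BC3: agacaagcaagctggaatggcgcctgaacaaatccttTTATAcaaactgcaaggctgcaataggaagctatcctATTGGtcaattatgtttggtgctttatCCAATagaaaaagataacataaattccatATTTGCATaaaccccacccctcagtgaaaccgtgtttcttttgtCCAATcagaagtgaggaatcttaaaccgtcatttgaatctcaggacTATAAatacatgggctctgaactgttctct
H4C2: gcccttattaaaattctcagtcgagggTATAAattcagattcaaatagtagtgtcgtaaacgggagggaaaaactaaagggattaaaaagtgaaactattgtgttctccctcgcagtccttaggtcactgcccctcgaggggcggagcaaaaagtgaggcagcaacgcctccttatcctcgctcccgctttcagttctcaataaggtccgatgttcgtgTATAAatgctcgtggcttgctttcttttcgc
H3C15: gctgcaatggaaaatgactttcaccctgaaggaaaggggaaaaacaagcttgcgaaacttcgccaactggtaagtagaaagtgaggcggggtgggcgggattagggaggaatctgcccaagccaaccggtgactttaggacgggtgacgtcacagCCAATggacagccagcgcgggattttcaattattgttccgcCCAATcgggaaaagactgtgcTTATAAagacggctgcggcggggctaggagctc
In H3C15 the capitals TTATAA are a TATA box on each strand, which overlap.

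RefSeq promoters matched 59 of the 64 genes, with 63 windows, and not H4C1, H4C3, H2AC12, H3C11 and H3C12. The CCAAT box was found in 54 of these windows, against 32.0% of all 35116 promoter windows of the same length, and the 9 windows without it were all of class H4. The TATA box was found in 59 (18.9% of all promoters). The octamer was found in 14 of 18 H2B and 10 of 14 H2A windows, in 1 of 13 H3 windows and in none of the H1 and H4 windows (1.63% of all promoters). A match describes these letters only. No peak could be placed on a promoter, because the sequences and the peaks are on different builds.

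Several members had promoters that shared long identical runs, the longest of them between genes of the HIST2 run. Over 300 bases, 50 of them past the start, the promoters of H4C14 and H4C15 were identical, those of H2AC18 and H2AC19 shared a run of 299 bases, and those of H3C14 and H3C15 a run of 296 bases. In each of these pairs the genes lay on opposite strands. On chromosome 6, H4C11 and H4C12 shared a run of 126 bases, and H2AC13 with H2AC14 and H2BC13 with H2BC14 runs of 93 bases. H2AC7 and H3C4 are listed with the same 300 bases, which is 1 shared window and not a copy, and it counts as both an H2A and an H3 window above. The handling of reads that match more than 1 place is not stated, and the part of these copies in the HIST2 values was not tested.

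Peaks covered little of the first region and of the HIST2 region in both lists. In list 1, peaks covered 14.4% of the first region, 34.3% of the second and 13.0% of the HIST2 region. In list 2 the covered shares were 4.03%, 18.9% and 1.94%. The second region was thus covered 2.38 times as much as the first in list 1 and 4.69 times as much in list 2. Chromosome 6 as a whole was covered 47.3% and 24.9%, so each of the regions lay under its chromosome in both lists (chromosome 1 was covered 43.5% and 23.6%). These shares count every listed peak, weak peaks included. Member peaks went down to a −log10 p of 1.02 (q 0.84) in list 1 and 1.58 (q 0.447) in list 2. A q at or under 0.05 was reached by 0 of 140 members in list 1 and 2 of 58 in list 2.

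Set beside all windows of their own length along the chromosomes, the first and the HIST2 regions ranked low in both lists. Of 4746 windows of 600 kb, 6.24% were covered less than the first region in list 1 and 6.32% in list 2, with medians of 47.8% and 23.4% over all of them. The HIST2 region had 9.01% of 18933 windows of 150 kb under it in list 1 and 6.41% in list 2. The second region sat nearer the middle, with 26.0% and 39.1% of 3359 windows of 850 kb under it. These ranks describe positions within a list.

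**Figure D1:**
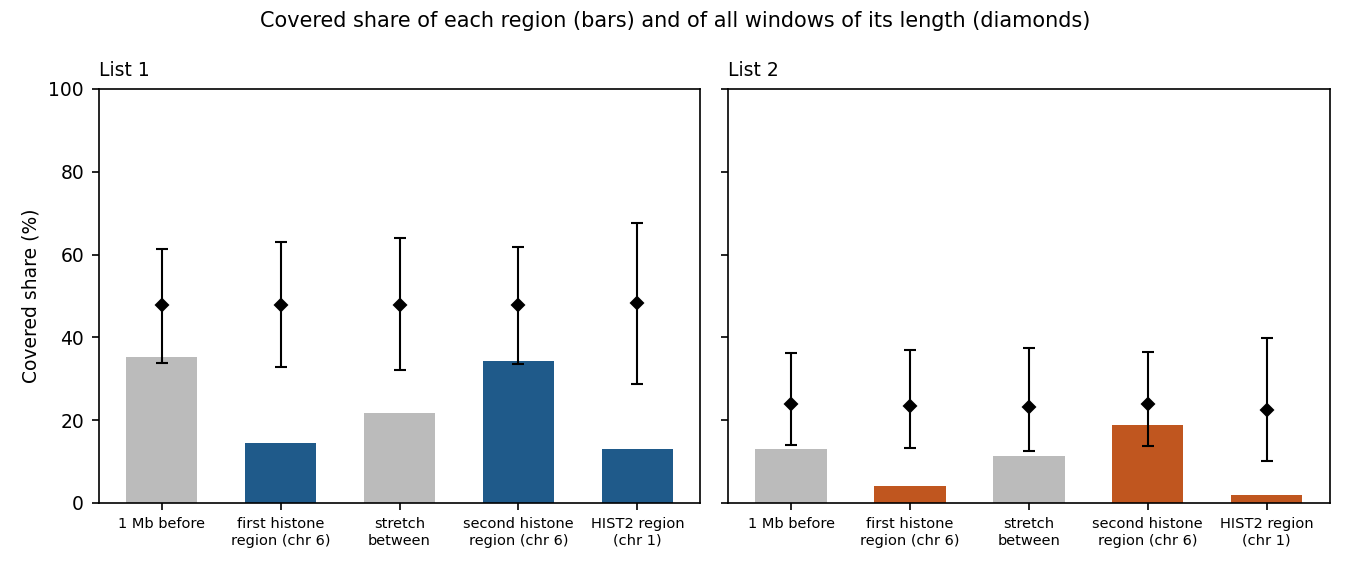
Bars show the share of base pairs covered by peaks (%) in the 3 histone regions (coloured) and the comparison stretches on chromosome 6 (grey), with list 1 on the left and list 2 on the right. Diamonds with whiskers are the median and quartiles over all windows of the same length; the first region (14.4% and 4.03%) and the HIST2 region (13.0% and 1.94%) lie under the lower quartile in both lists.

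Against the whole of each neighbouring stretch on chromosome 6, the first region was covered less in both lists. The stretch between was covered 21.6% in list 1 and 11.2% in list 2, so the first region had 0.669 and 0.359 times its share. That direction turned when the covered end of the stretch, from 26.60 to 26.70 Mb, was left out, since the rest was covered 13.4% and 2.26%, under the 14.4% and 4.03% of the first region. The 1 Mb before was covered 35.2% and 13.1%, which gave ratios of 0.410 and 0.307. No gene was placed on hg19, so the comparison stretches are not known to be free of histone genes. Beyond the second region, the 0.5 Mb from 27.90 to 28.40 Mb was covered 50.3% and 29.7%, more than either histone region of chromosome 6.

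No stable direction was found for the pooled chromosome 6 regions. Their pooled share was 26.1% in list 1 and 12.7% in list 2, which was 1.21 and 1.14 times that of the stretch between and 0.740 and 0.971 times that of the 1 Mb before. Leaving out the 150 kb of the second region from 27.30 to 27.45 Mb turned the first pair of ratios to 0.886 and 0.477 and lowered the second pair to 0.543 and 0.408. The covered end of the stretch between had 50% and 42.6%. Without it the ratios rose to 1.94 and 5.65, or to 1.42 and 2.37 with the 150 kb left out as well. Both choices were made after the data had been seen.

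The covered end of the stretch between also held wide peaks at matching places in both lists. In list 1 these were chr6:26610315-26634809 (24.5 kb, fold 2.11) and chr6:26638923-26654736 (15.8 kb, fold 2.54). The list 2 peaks there were chr6:26611823-26634765 (22.9 kb, fold 2.56) and chr6:26638865-26654128 (15.3 kb, fold 3.18). By number, the 3 histone regions held 8.75 peaks per 100 kb in list 1 and 3.62 in list 2, against 10.8 and 8.73 over all chromosomes. The 1 Mb before held 13.2 and 8.10 peaks per 100 kb, and the stretch between 7.33 and 1.78.

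**Figure D2:**
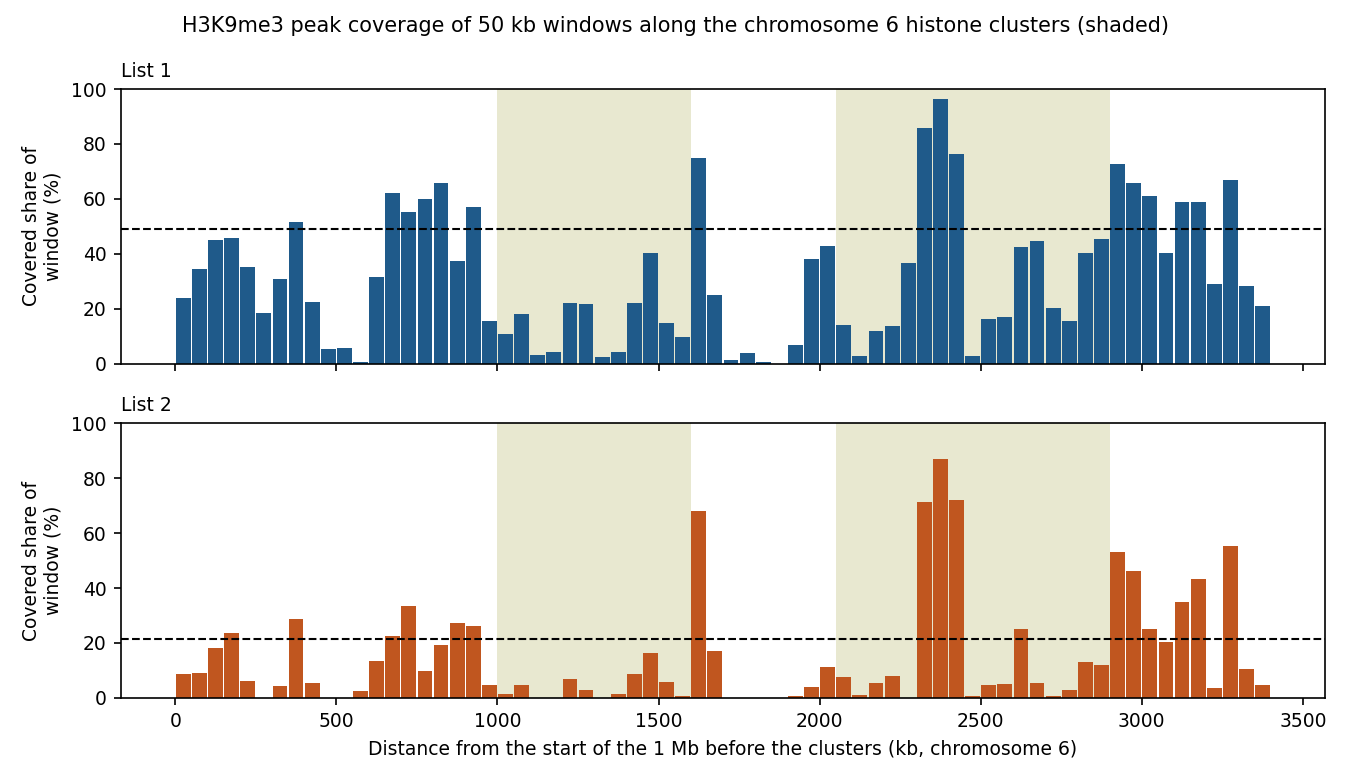
Each bar is the share of a 50 kb window covered by peaks (%), along chromosome 6 from the start of the 1 Mb before the clusters to 0.5 Mb after them (distance in kb), with the histone regions shaded and the median of all windows dashed (48.9% in list 1, 21.3% in list 2). Within the shaded regions, 3 adjoining windows reach 76.5% to 96.4% in list 1 and 71.2% to 87.0% in list 2, and all other windows stay at or under 45.4% and 24.9%.

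A single run of wide peaks held most of the covered length of the second region in list 2 and a smaller share of it in list 1. Of its 17 windows of 50 kb, the 3 from 27.30 to 27.45 Mb were covered 85.8%, 96.4% and 76.5% in list 1 and 71.2%, 87.0% and 72.2% in list 2. This stretch is 17.6% of the region by length, and it held 44.4% of the covered length of the region in list 1 and 71.7% in list 2. The rest of the second region was covered 23.1% and 6.50%. Which genes lie under the run was not determined.

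The list 1 run, chr6:27306204-27437832, consisted of 3 peaks and was covered 97.5% over its 132 kb. Its list 2 counterpart, chr6:27307818-27436111, consisted of 6 peaks and was covered 89.8% over 128 kb. The edges of the lists thus lay under 2 kb apart on both sides.

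The widest member of list 1 was chr6:27357247-27437832, 80.6 kb wide with a deposited fold enrichment of 2.47, which was also the highest fold among the members of that list. Its partners in list 2 were 2 peaks that covered 92.7% of it. The widest member of list 2 was chr6:27376851-27436111, 59.3 kb wide with a fold of 2.83 and a −log10 q of 1.30. It lay wholly inside the widest peak of list 1. These peaks ranked 2584 and 6179 by fold in their lists. The fold is the authors' ratio of signal over the background of the peak caller.

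The next widest peaks belonged to the same run. In list 1 these were chr6:27320498-27355426 (34.9 kb, fold 2.13) and, in list 2, chr6:27315260-27341089 (25.8 kb, fold 2.70) and chr6:27359819-27375292 (15.5 kb, fold 2.70). Apart from the run, the widest peak was chr6:27595881-27610922 in list 1, at 15 kb with a fold of 1.94, and list 2 had 4 narrower peaks over its length that reached a fold of 2.40.

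**Figure D3:**
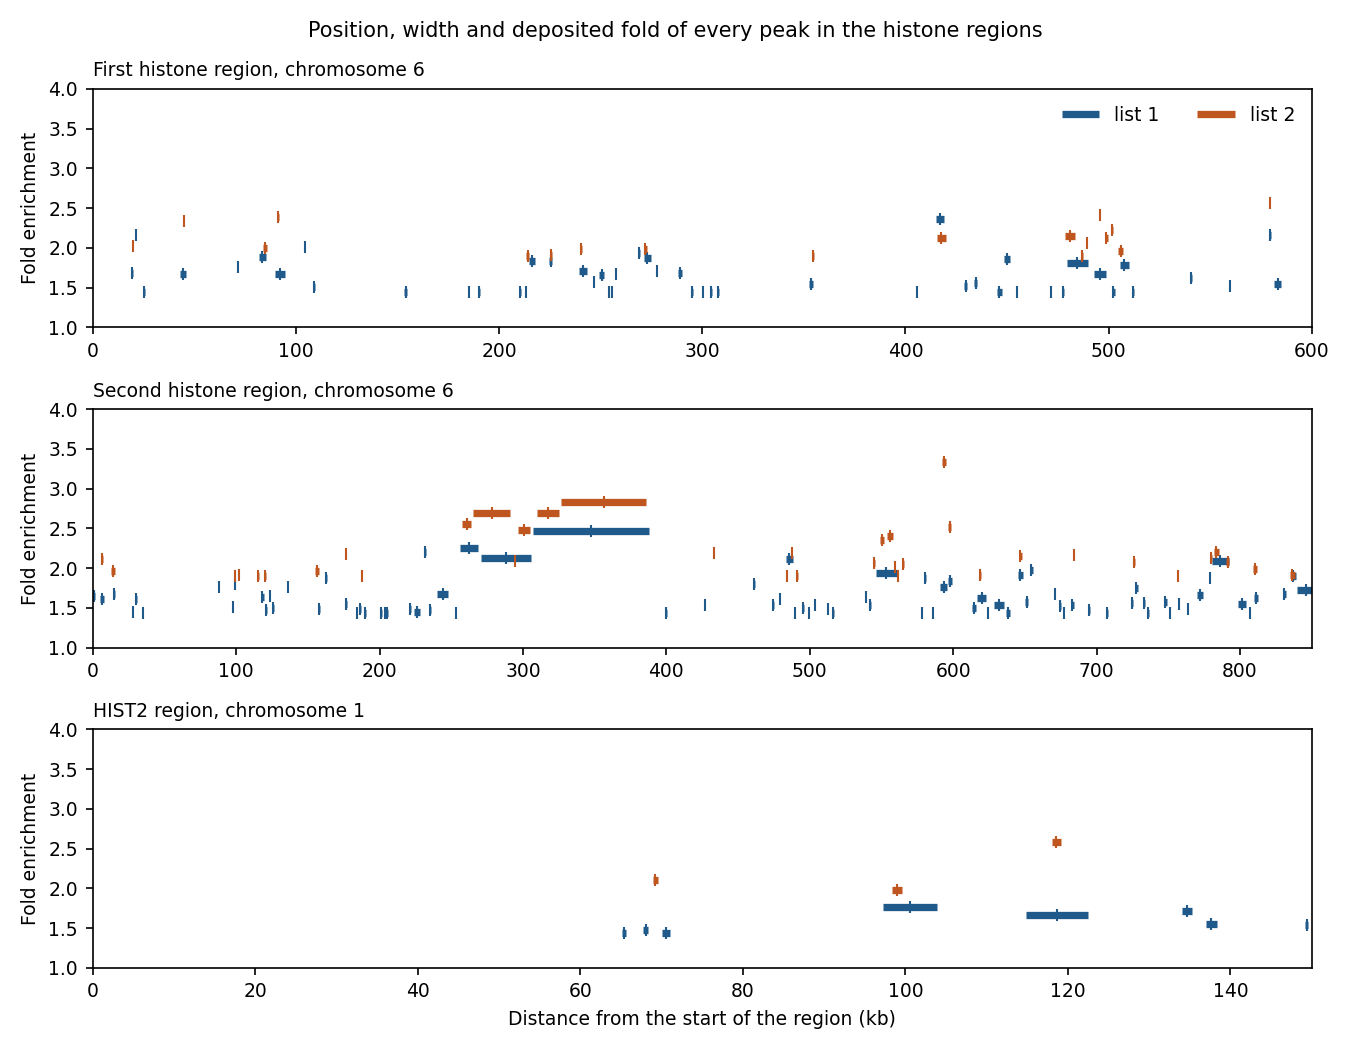
Each horizontal segment is a peak, drawn at its distance from the start of its region (kb) and at its deposited fold enrichment, with a tick at its centre, for list 1 (blue) and list 2 (orange). Long segments at folds of 2.13 to 2.83 fill one part of the second region, while the first region and the HIST2 region hold short, scattered peaks.

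The highest fold of any member was 3.33, in list 2 at chr6:27642271-27644855, 2.58 kb wide with a q of 0.0119. It lay inside chr6:27641059-27645587 of list 1, which had a fold of 1.76 and a q of 0.521. This peak and the widest one were the only members of list 2 with a q at or under 0.05, which is 2 of 58 (3.45%, Wilson 95% interval 0.951 to 11.7%) against 2.07% of all peaks of the list. List 1 had none among 140 (upper limit 2.67%), against 0.190% of all its peaks.

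Few windows of the regions were covered over 50% or more of their length. That limit was reached by 3 of 32 windows of 50 kb in each list (9.38%, interval 3.24 to 24.2%), against 48.7% of 56757 windows in list 1 and 17.8% in list 2. They were the same 3 windows, those from 27.30 to 27.45 Mb, and 0 of the other 29 reached it in either list. The background share lies outside the interval in list 1 and inside it in list 2. The 3 windows adjoin and share peaks, and windows are not independent, so this is not a test. In the stretch between, 1 of 9 windows reached the limit in each list. In the 1 Mb before it was 6 of 20 in list 1 and 0 of 20 in list 2. The median over the 32 windows was 16.7% in list 1 and 4.62% in list 2, against 48.9% and 21.3% over all windows.

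In list 1, 1 of the 32 windows held no peak (3.12%, interval 0.554 to 15.7%), against 2.37% of all windows. In list 2 there were 5 (15.6%, interval 6.86 to 31.8%), against 8.09% of all windows. Both background shares lie inside these intervals. The window of the HIST2 region from 149.75 to 149.80 Mb was empty in both lists. The others in list 2 were 26.10 to 26.15, 26.15 to 26.20 and 26.30 to 26.35 Mb in the first region and 27.25 to 27.30 Mb in the second, the window just before the wide run. List 1 covered these by 3.23%, 4.38%, 2.30% and 36.5%. The stretch between had 1 of 9 windows without a peak in list 1 and 4 of 9 in list 2. The 1 Mb before had 0 of 20 in list 1 and 3 of 20 in list 2.

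No window of the first region reached the median of all windows. Its 12 windows lay between 2.30% and 40.1% in list 1, and between 0% and 16.2% in list 2, with medians of 12.7% and 2.09%. The highest window in both lists was 26.45 to 26.50 Mb, toward the end of the region. The longest intervals without a peak in either list were chr6:26354834-26405472 (50.6 kb), chr6:26308092-26352545 (44.5 kb) and chr6:26109596-26153452 (43.9 kb). In list 2 alone, chr6:26091616-26213465 held no peak over 122 kb. Such intervals were also found in the comparison stretches, where the longest without a peak in either list was 95.8 kb in the stretch between and 48.9 kb in the 1 Mb before. In list 2 alone the longest there were 243 kb and 142 kb.

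There were 49 peaks in the first region in list 1 and 18 in list 2. Their median width was 1152 bp and 858 bp. The widest in list 1 was chr6:26479449-26489729 (10.3 kb, fold 1.81), and the widest in list 2, chr6:26478528-26483477 (4.95 kb, fold 2.15), overlapped it. The highest fold in list 1 was 2.36 at chr6:26414912-26419050, where list 2 had a peak of fold 2.12, and in list 2 it was 2.56 at chr6:26579112-26579429, a peak of 318 bp inside a list 1 peak of fold 2.16.

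Outside the wide run, the most covered windows of the second region lay in its later part. The windows from 27.60 to 27.65 and 27.65 to 27.70 Mb were covered 42.5% and 44.5% in list 1 and 24.9% and 5.43% in list 2. In the last windows, from 27.80 to 27.85 and 27.85 to 27.90 Mb, the shares were 40.4% and 45.4% in list 1 and 12.9% and 12.0% in list 2. The next window, past the region, was covered 72.7% and 53.2%. The window from 27.10 to 27.15 Mb was among the lowest, at 2.83% and 1.13%, with 3 peaks in list 1 and 1 in list 2. The longest interval of the second region without a peak in either list, chr6:27085259-27137537 (52.3 kb), ended inside it.

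In the HIST2 region there were 8 peaks in list 1 and 3 in list 2. The first 65.2 kb held no peak in either list. The widest in list 1 were chr1:149864877-149872422 (7.55 kb, fold 1.67) and chr1:149847191-149853906 (6.72 kb, fold 1.76), and each held a peak of list 2. These were chr1:149867991-149869092 (fold 2.58) and chr1:149848405-149849607 (fold 1.98). The third list 2 peak, chr1:149818928-149819533 (606 bp, fold 2.11), had no partner.

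The surroundings of the HIST2 region differed on its sides. Coverage of the 0.5 Mb before it was 1.49% in list 1 and 0.611% in list 2, with 5 and 7 of 10 windows without a peak. The 0.5 Mb after it was covered 22.5% and 5.05%. The HIST2 region lay between these, with 8.70 and 3.18 times the share before it and 0.575 and 0.384 times the share after it. In the 0.5 Mb before, the windows from 149.40 to 149.65 Mb held no peak in either list. The lists hold no read counts, so a stretch without the mark cannot be told from a stretch where no reads were placed. This limits the ratios to the share before.

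The median width of the member peaks was below that of all peaks in both lists. It was 1155 bp in list 1 and 1118 bp in list 2, against 1973 and 1564 bp over all peaks. Peaks under 1 kb made up 60 of 140 (42.9%, interval 35.0 to 51.1%) in list 1, against 28.7% of all peaks, and 27 of 58 (46.6%, 34.3 to 59.2%) in list 2, against 33.1%. Peaks of 10 kb or more were 7 of 140 (5.00%, 2.44 to 9.96%) against 9.62%, and 3 of 58 (5.17%, 1.77 to 14.1%) against 4.45%. The intervals cover counting error only, and neighbouring peaks are not independent. In list 1 the median width was 1020 bp in the stretch between and 1374 bp in the 1 Mb before. The list 2 medians there were 3061 and 1241 bp. Peaks under 1 kb were 16 of 33 in the stretch between and 50 of 132 in the 1 Mb before in list 1. In list 2 they were 3 of 8 and 37 of 81. A high share of short peaks was thus not particular to the histone regions.

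The median fold was 1.55 in list 1 and 2.08 in list 2, against 1.64 and 2.12 over all peaks. Folds higher than the list's median were found for 54 of 140 members (38.6%, interval 30.9 to 46.8%) in list 1 and 25 of 58 (43.1%, 31.2 to 55.9%) in list 2, against 50% of all peaks in each. At the lowest fold of the list stood 40 of 140 (28.6%, 21.7 to 36.5%) against 18.1%, and 11 of 58 (19.0%, 10.9 to 30.9%) against 15.6%. In list 2 the background share lies inside both of these intervals, and in list 1 it lies outside both. Neighbouring peaks are not independent, so this is not a test. At the lowest fold of list 1 stood 30.3% of peaks in the stretch between and 24.2% in the 1 Mb before. The list 2 shares there were 37.5% and 14.8%. Folds above the list's median were found there for 15 of 33 and 60 of 132 peaks in list 1, and 5 of 8 and 26 of 81 in list 2.

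**Figure D4:**
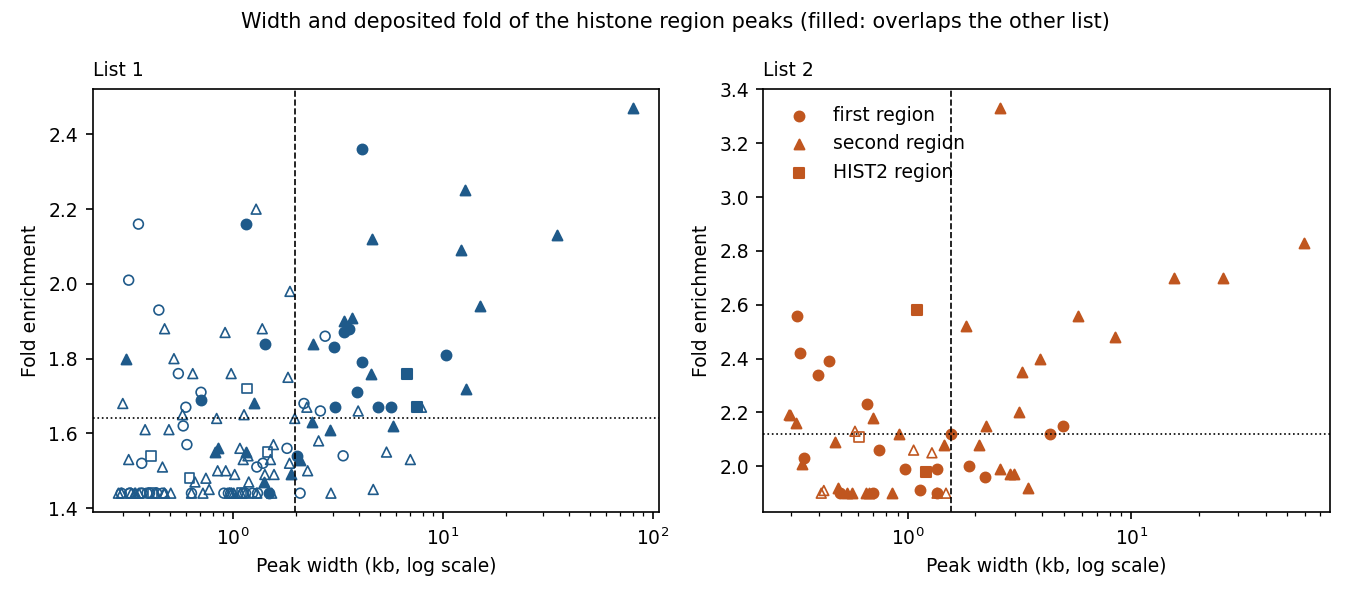
Points are the peaks of the histone regions by width (kb, log scale) and deposited fold enrichment, with circles for the first region, triangles for the second and squares for the HIST2 region; filled points overlap the other list by at least 1 bp, and lines mark the median width (dashed) and median fold (dotted) of all peaks. Open points of list 1 gather at small widths and at the lowest fold of 1.44, and the widest points are triangles.

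Fewer of the list 1 members than of all list 1 peaks were also found in list 2. A partner sharing at least 1 bp was found for 39 of 140 peaks of list 1 (27.9%, interval 21.1 to 35.8%), against 50.8% of all its peaks. For list 2 it was 49 of 58 (84.5%, 73.1 to 91.6%), against 90.1%. The list 1 share was 21.2% (7 of 33) in the stretch between and 32.6% (43 of 132) in the 1 Mb before. It was 59.0% (36 of 61) in the 0.5 Mb after the second region. A low share was thus not particular to the histone regions. List 1 also went down to a fold of 1.44 and list 2 only to 1.90. Of 20 list 1 members that met the −log10 p limit set by list 2, 12 had a partner (60.0%, interval 38.7 to 78.1%). The share of all list 1 peaks under that limit was not computed, so this value has no background beside it. Whether the different limits of the lists bear on the shares was not tested. The 101 list 1 peaks without a partner had a median width of 925 bp and a median fold of 1.50, and those with a partner 3386 bp and 1.76. In the first region each of the 18 list 2 peaks had a partner, in the second 29 of 37 did, and in the HIST2 region 2 of 3.

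By length, list 1 and list 2 shared 165 kb of the regions, 41.5% of the covered length of list 1 there and 87.7% of that of list 2. The shared length was 0.392 of the length covered by either list (the Jaccard index), against 0.464 over all chromosomes. It was 0.869 in the 150 kb from 27.30 to 27.45 Mb and 0.177 in the rest of the regions. That stretch was chosen after the data had been seen, and the lists covered 86.2% and 76.8% of it. The contrast is therefore not a test of agreement between the lists. Over the 32 windows, which share chromosomes and, in part, peaks, Spearman's rho between the lists was 0.756, and 0.672 over the 29 windows outside that stretch, against 0.938 over all windows. Pearson's r was 0.901 over the 32 windows and 0.687 over the 29, against 0.901 over all windows. The folds of the 49 list 2 peaks with a partner had a rho of 0.321 with the highest fold of their partners, a weak relation that describes these pairs only.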

How the data were processed

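H3K9me3 immunoprecipitation and input libraries of U2OS cells were processed on hg19. Per the submitters' processing notes the tools were MACS2 2.2.7.1, Bowtie2 2.5.0, Trim Galore 0.6.7 and bcl2fastq 2.17, with their roles not stated. Cutoffs, the control, duplicate handling and pooling are likewise not stated. The authors deposited 2 broad peak lists with a fold enrichment (a ratio), a −log10 p and a −log10 q for each peak. The deposited display score was not used.

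Peaks on chromosomes 1 to 22 and X were kept. Covered shares were computed within region borders, and a peak was a member if it shared at least 1 bp with a region. Windows inside stretches of at least 1 Mb without a peak in either list were left out of the background. Shares carry Wilson 95% intervals. The regions and comparisons, the named peaks (the widest, those of highest fold and the longest peak-free intervals) and the promoters were chosen with earlier results of these data known. Alternatives concerned the peaks used, region borders, comparison stretches, window length and overlap. Interval functions were checked on simulated data in 20 sets against a count base by base. No depth is known. Coordinates are 1-based. Gene names, order and promoters are from RefSeq (GRCh38.p14). Computations ran in Python 3.11.15 with pandas 2.3.3, numpy 2.4.6 and scipy 1.17.1, and plots in matplotlib 3.10.9. H2AC1 and H2BC1, which RefSeq order places apart from the runs, were not counted. They were not placed on hg19, so they may lie in a comparison stretch such as the 1 Mb before.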

Additional observations from a re-analysis of the deposited data

How the results depend on the processing

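No paired analysis was possible because the lists belong to no sample. The unknown depth limits every covered share, and the few peaks at a q of at most 0.05 limit that setting, under which list 1 had no peak to give a value. Ratios have no interval, so each change at 3 digits is given. The cause of the changes was not tested.

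The ratio of the chromosome 6 regions to the stretch between was 1.21 in list 1 and 1.14 in list 2. In list 1 it was 1.06 for peaks above the median fold, 0.999 at the lowest −log10 p of list 2, 1.04 for base pairs in both lists, 1.18 weighted by fold, 1.25 with 50 kb trimmed off each end, 0.669 for the first region, 1.59 for the second and 1.15 with the HIST2 region. It was 1.21 for peaks of at least 1 kb. In list 2 it was 0.930 for peaks above the median fold, 1.26 at a q of at most 0.05, 1.09 for peaks of at least 1 kb, 1.04 for base pairs in both lists, 1.05 weighted by fold, 1.24 trimmed, 0.359 for the first region, 1.68 for the second and 1.04 with the HIST2 region. Added after the data had been seen, it was 0.886 and 0.477 without 27.30 to 27.45 Mb, 1.94 and 5.65 without 26.60 to 26.70 Mb, and 1.42 and 2.37 without both.

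The ratio to the 1 Mb before was 0.740 and 0.971. In list 1 it was 0.789 above the median fold, 0.731 for peaks of at least 1 kb, 3.63 at the lowest −log10 p of list 2, 1.08 for base pairs in both lists, 0.842 weighted by fold, 0.768 trimmed, 0.410 for the first region, 0.974 for the second and 0.705 with the HIST2 region. Against the nearest 0.5 Mb before it was 0.667, against the 0.5 Mb after 0.518, and without 27.30 to 27.45 Mb 0.543. In list 2 it was 1.92 above the median fold, 141 at a q of at most 0.05 (2 peaks against 1), 1.08 for peaks of at least 1 kb and for base pairs in both lists, 1.14 weighted by fold, 1.06 trimmed, 0.307 for the first region, 1.44 for the second, 0.894 with the HIST2 region, 0.801 and 0.429 against the stretches of 0.5 Mb before and after, and 0.408 without 27.30 to 27.45 Mb.

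The share of members with a partner fell to 7.86% in list 1 and 19.0% in list 2 when the overlap had to make up 50% or more of both peaks, and was 60.0% and 34.5% under the limit that list 2 sets for −log10 p. The share of windows covered over 50% or more of their length was 0% in both lists without 27.30 to 27.45 Mb. This was fixed by the choice, since that stretch holds every window that reached the limit. Other alternatives kept these shares inside their intervals, with 17.2% and 7.81% for windows of 25 kb and 16.9% and 8.75% for windows of 10 kb. No share over all peaks or all windows was computed under these alternatives. Whether the differences from the background hold under them was therefore not tested.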
